A study of Mus musculus with 24 samples.

Results

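This section follows 10 genes of the cyclic AMP pathway that holds a mouse oocyte in prophase of meiosis, among the 25965 gene entries of the deposited table. They were picked by name for that role and all 10 were found: the receptors Gpr3 and Gpr12, the stimulatory G protein gene Gnas, the adenylyl cyclases Adcy3 and Adcy9, the phosphodiesterase Pde3a, and the protein kinase A genes Prkaca, Prkacb, Prkar1a and Prkar2a. Transcripts were read in single, naturally ovulated oocytes of adult mice, freed of cumulus cells with hyaluronidase and of the zona with acid Tyrode's solution. Of the oocytes, 10 came from 4 females labelled Thy1.2-AMHTg/0, which carry an anti-Müllerian hormone (AMH) transgene named for the Thy1.2 promoter, and 11 came from 4 wild-type females labelled Thy1.2-AMH0/0. The Thy1.2 promoter is best known for expression in neurons, and the cells that make the transgenic hormone in these mice are not named in the labels. On each of 4 sequencing lanes, oocytes of 1 transgenic and 1 wild-type female were run, and 1 library of the kit's control RNA, of a source that the labels do not give, was also read. The labels give neither strain nor exact age.

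In a growing follicle the oocyte makes its own cyclic AMP. GPR3 signals without a known need for a ligand through the stimulatory G protein to adenylyl cyclase, and the cyclic AMP frees the catalytic subunits of protein kinase A from the regulatory ones. That kinase keeps the oocyte in prophase by acting on WEE2 and CDC25B, which control CDK1. PDE3A, the phosphodiesterase that breaks down cyclic AMP in the oocyte, is held back by cyclic GMP from the somatic cells until the ovulatory signal. The oocytes measured here had passed that point, so the values describe transcripts that an ovulated egg still carries.

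Oocytes of a mother were averaged, which leaves n = 4 females a genotype. The oocyte libraries held 20441302 to 33341040 reads, and 3 reads, the most that a count of 0 allows, stood for 0.0900 to 0.147 RPM (a gene's reads per 1000000 in that library). Amplified reads are not independent molecules, so such floors and intervals cover counting error only. The oocyte markers matched the label, with H1foo at 8316 RPM and Btg4 at 7218 RPM on average. Of 26 cumulus and granulosa markers 23 averaged under 1 RPM and 5 were at 0 reads in all oocytes. Cyp19a1 stood at 62.7 RPM and Nr5a2 at 12.5 RPM on average. Summed, these markers reached 92.7 ± 8.01 RPM for transgenic and 86.1 ± 5.75 RPM for wild-type females (SD, n = 4; two-sided exact permutation of the 8 females, p = 0.2, adjusted p = 0.476 over 5 such comparisons). Cyp19a1 made up most of these sums, at 68.6 against 58.8 RPM, with reads in all 21 oocytes. The comparison therefore mainly follows Cyp19a1 and cannot tell whether cumulus cells were carried over. A single wild-type oocyte, oocyte C of lane 2, stood above the low means. In it Inha reached 13.7 RPM, with reads in 2 oocytes, and Tnfaip6 8.39 and Ptx3 3.54 RPM, each with reads in 1. Whether this oocyte carried RNA of cumulus cells was not tested. Inha, Tnfaip6 and Ptx3 were named after their values were seen. Of 10 blood and immune markers 6 had 0 reads, and Csf1r at 11.0 and Laptm5 at 6.96 RPM led a sum of 20.0 ± 1.04 against 21.0 ± 4.67 RPM. Of 6 oviduct epithelium markers 5 were under 1 RPM, and Epcam at 3.72 RPM led a sum of 4.40 ± 0.594 against 3.99 ± 0.369 RPM. Amh was read in 1 oocyte, a wild-type one, so it could not check the genotype labels.

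All members except Gpr12 had reads in all 21 oocytes, and 8 of the 10 passed the filter of a mean of at least 1 RPM. Gpr12 and Adcy3 did not pass it. Levels of different genes are compared here per length, as RPM per kb of merged exons. On that scale Prkar1a was highest at 37.8 ± 4.97 (SD over 21 oocytes), followed by Gnas at 27.2 ± 6.62, Gpr3 at 12.5 ± 5.64, Prkar2a at 11.6 ± 3.48 and Prkaca at 7.74 ± 5.60. Lower down came Adcy9 at 2.54 ± 0.894, Pde3a at 2.44 ± 0.855, Prkacb at 0.661 ± 0.259, Adcy3 at 0.133 ± 0.0695 and Gpr12 at 0.0867 ± 0.145. The order was not settled between every neighbour. Gpr3 exceeded Prkar2a in 11 of 21 oocytes and Adcy9 exceeded Pde3a in 12 of 21, so neither pair differed beyond its spread. In all 21, Gnas exceeded Gpr3, Pde3a exceeded Prkacb and Prkacb exceeded Adcy3. With the longest transcript as the length, Pde3a exceeded Prkacb in 19, while Gnas over Gpr3 and Prkacb over Adcy3 held in all 21. Prkar1a stood above Gnas in 20 oocytes on merged exons, but in 1 oocyte when the longest transcript was taken as the length, which puts Gnas at 77.1 and Prkar1a at 46.4 RPM per kb.

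**Figure D1:**
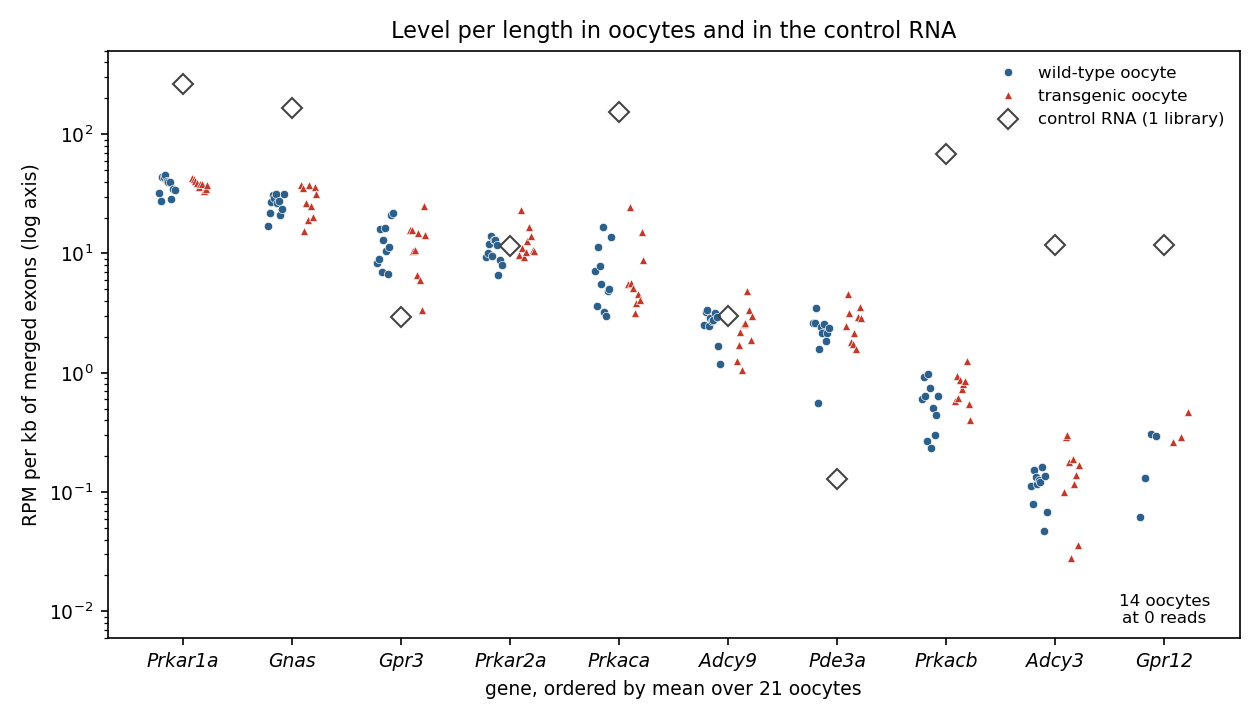
Level of each gene per kb of merged exons (log axis) in wild-type oocytes (circles), transgenic oocytes (triangles) and the control RNA (diamonds, 1 library). The genes run from Prkar1a at 37.8 to Gpr12 at 0.0867 RPM per kb on average. The 14 oocytes without Gpr12 reads are counted, not drawn.

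Gpr3, the receptor that sets the arrest in mice (chromosome 4, 133209340 to 133212536, minus strand, GRCm38), ranged from 9.14 to 67.8 RPM between oocytes. Transgenic oocytes had a lowest value of 9.14, a median of 34.3 and a highest of 67.8 RPM, and wild-type oocytes had 18.4, 31.0 and 60.0 RPM. By mother, in lanes 1 to 4, the means were 42.8, 25.3, 21.9 and 53.6 RPM in the transgenic females and 30.4, 33.1, 26.0 and 58.7 RPM in the wild-type females. The groups overlapped throughout, and the highest females of both genotypes were those of lane 4, whose 4 oocytes stood between 39.4 and 67.8 RPM. Transgenic minus wild type came to a log2 of -0.10 ± 0.33 (SE), with a 95% interval from -0.81 to 0.60 (limma, adjusted p = 0.946). Its sign turned when the transgenic female of lane 2 (0.0123) or lane 3 (0.15), the wild-type female of lane 4 (0.151), or transgenic oocyte C of lane 3 (0.0127) was left out.

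Gpr12, a close relative of Gpr3 known from the rat oocyte (chromosome 5, 146582151 to 146585239, minus strand), was near the limit of detection. It had 0 reads in 14 oocytes and 4 to 28 reads in the other 7, 3 transgenic and 4 wild-type, with a highest value of 1.18 RPM. In lane 2 all 6 oocytes were at 0 reads, and in lane 4 reads were found in 3 of 4 oocytes. Among 18 receptors chosen for a list around the stimulatory G protein, Gpr3 ranked highest per length and made up 77.6% of their summed level. The list does not hold every receptor of that class, and the coupling of its genes was not checked. The prostaglandin receptor Ptger4 and the PACAP receptor Adcyap1r1 followed, at 2.03 and 0.827 RPM per kb, and Gpr6, the other relative of Gpr3, had 0 reads in all oocytes.

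The upstream sequences of the receptor pair and of the cyclase pair are shown because in each pair 1 gene was read in all oocytes at over 5 RPM and the other stood under 2 RPM in all oocytes. They are the 250 bases before a RefSeq start (GRCm38.p6, strand of the gene), with capitals where a searched motif was found on either strand: TGACGTCA (the cAMP response element), TGACG (contained in it), CCAAT (the CCAAT box), GGGCGG (the GC box), CACGTG (an E-box) and TATAAA.
Gpr3, chr4:133212537-133212786, minus strand: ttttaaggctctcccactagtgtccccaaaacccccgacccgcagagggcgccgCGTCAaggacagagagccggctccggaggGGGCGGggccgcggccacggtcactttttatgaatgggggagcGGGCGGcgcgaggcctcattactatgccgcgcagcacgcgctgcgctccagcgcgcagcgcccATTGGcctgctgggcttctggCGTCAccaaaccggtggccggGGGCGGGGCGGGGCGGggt
Gpr12, chr5:146585240-146585489, minus strand: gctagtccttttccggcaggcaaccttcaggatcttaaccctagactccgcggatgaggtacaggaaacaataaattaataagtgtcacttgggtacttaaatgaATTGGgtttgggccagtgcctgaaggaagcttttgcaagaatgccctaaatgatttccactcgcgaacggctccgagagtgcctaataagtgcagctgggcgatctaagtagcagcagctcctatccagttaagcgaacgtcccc
Adcy9, chr16:4420499-4420748, minus strand: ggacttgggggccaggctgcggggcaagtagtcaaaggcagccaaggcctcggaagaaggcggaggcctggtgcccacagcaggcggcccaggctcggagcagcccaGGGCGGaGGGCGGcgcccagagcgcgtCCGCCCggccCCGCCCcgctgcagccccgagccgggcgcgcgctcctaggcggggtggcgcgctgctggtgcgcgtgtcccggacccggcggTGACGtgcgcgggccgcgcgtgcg
Adcy3, chr12:4133147-4133396, plus strand: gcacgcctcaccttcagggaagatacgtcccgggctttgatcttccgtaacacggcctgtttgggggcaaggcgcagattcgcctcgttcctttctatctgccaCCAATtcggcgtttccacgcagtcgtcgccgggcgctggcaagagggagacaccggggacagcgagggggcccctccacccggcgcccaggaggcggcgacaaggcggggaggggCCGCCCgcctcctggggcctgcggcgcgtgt

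The Gpr3 window held 5 GC boxes, some of them overlapping, and had a GC content of 70.8%, and the Gpr12 window held 0 GC boxes and a GC content of 48.8%. Over 32851 windows of the same length, 32.7% held a GC box and the median GC content was 52.4%. Adcy9 (78.8% GC, 4 GC boxes) and Adcy3 (68.8% GC, 1 GC box) were both above that median. TGACG occurred 2 times for Gpr3, 1 time for Adcy9 and 0 times for Gpr12 and Adcy3, against 17.8% of windows with at least 1 match. The full element TGACGTCA was in none of these 4 windows and in 1.55% of all, CACGTG (6.02% of all) and TATAAA (12.4% of all) were in none of the 4, and CCAAT (33.8% of all) was in those of Gpr3, Gpr12 and Adcy3. The RefSeq start used for Adcy3 lies 294 bases downstream of the start of the deposited entry, so its window is upstream of that RefSeq start but inside the gene by the table's coordinates.

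Gnas, which encodes the stimulatory alpha subunit (chromosome 2, 174284320 to 174346744, plus strand), stood at 173 to 422 RPM. Transgenic oocytes ran from 173 through a median of 325 to 422 RPM and wild-type oocytes from 188 through 300.1 to 352 RPM. The 4 highest values were those of transgenic oocytes of lanes 1, 3 and 4, the lowest was transgenic too, and the groups overlapped. Between genotypes the log2 difference was 0.14 ± 0.19, with an interval from -0.27 to 0.55 (limma, adjusted p = 0.876). It ran from 0.0242 without the transgenic female of lane 1 to 0.312 without that of lane 2, and was 0.0701 with the median of a female's oocytes. The locus also gives rise to other transcripts with their own starts, which the entry does not separate.

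The Gnas values could not be assigned to a strand. Gm20721, an entry on the opposite strand, has 1484 exon bases, of which 1469 lie in Gnas exons. It stood at 0.936 to 0.952 times the Gnas value in each oocyte and at 0.932 times in the control RNA, with r = 1.00 over 21 oocytes on the log2 scale. Strand use is not stated, so reads of the 2 entries cannot be told apart. Per kb of its own exons Gm20721 stood at 194 RPM, so the place of Gnas in the order depends on the length taken. The antisense RNA Nespas at the same locus was at 1.95 RPM on average. For Gpr3 the corresponding entry is Cd164l2, on the opposite strand at 722 RPM, which shares 204 of the 2734 exon bases of Gpr3. Its values did not follow those of Gpr3 (r = -0.40 over the same 21 libraries), and in the control RNA Cd164l2 stood at 3.04 and Gpr3 at 8.03 RPM. Adcy3 shares 1380 exon bases with Cenpo, at 118 RPM (r = 0.052). Reads in the bases that Gpr3 and Adcy3 share with these entries cannot be assigned to a strand either. These overlapping entries were chosen after their values were seen.

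**Figure D2:**
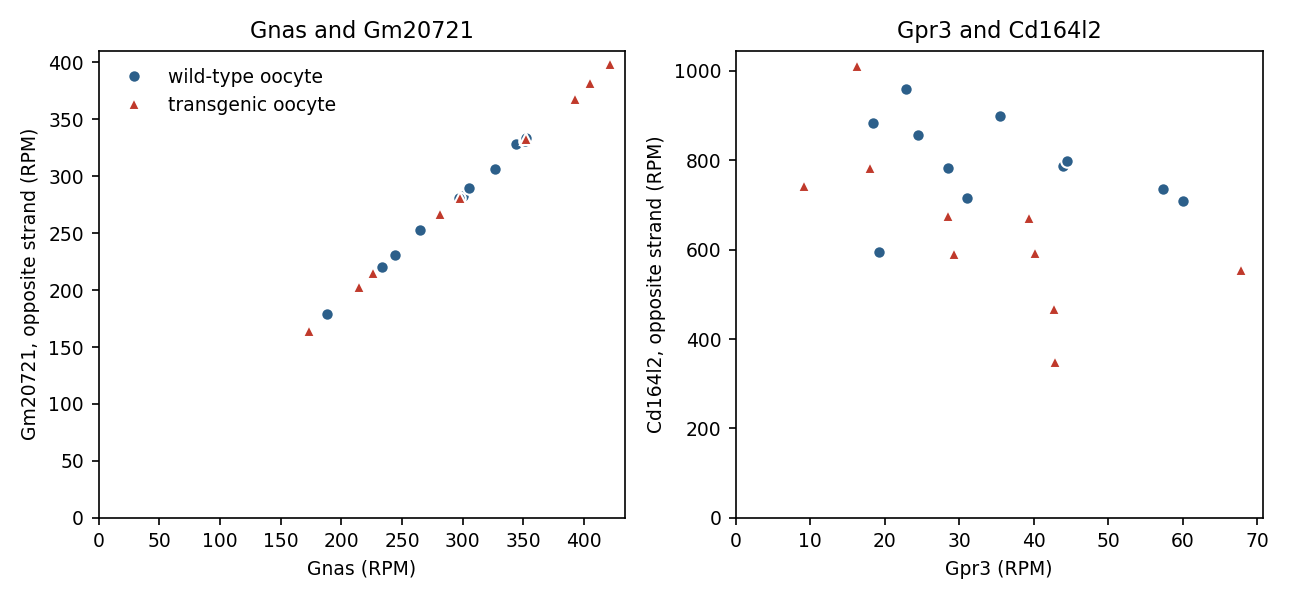
RPM of Gnas against Gm20721 (left) and of Gpr3 against Cd164l2 (right), entries on opposite strands that share exon bases; circles are wild-type and triangles transgenic oocytes. Gm20721 lies at 0.936 to 0.952 times Gnas in every oocyte, and Cd164l2 shows no such proportion to Gpr3.

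Among the adenylyl cyclases, which make cyclic AMP from ATP, Adcy9 was the main transcript and Adcy3 was low. Adcy9 (chromosome 16, 4287529 to 4420498, minus strand) made up 50.5% of the summed level per length of the 10 cyclase genes, ahead of Adcy5 with 23.4% and Adcy8 with 15.3%, while Adcy3 made up 2.65% and had rank 6. Adcy9 ran from 5.52 through a median of 12.3 to 25.4 RPM in transgenic and from 6.11 through 14.3 to 17.3 RPM in wild-type oocytes. Mothers averaged 7.68, 10.0, 18.9 and 12.6 RPM in the transgenic females of lanes 1 to 4 and 15.8, 14.0, 15.3 and 7.37 RPM in the wild-type females. The transgenic female was lower in lanes 1 and 2 and higher in lanes 3 and 4, so no direction was shared. Over the 4 and 4 females it differed by a log2 of -0.14 ± 0.30, with an interval from -0.78 to 0.50 (limma, adjusted p = 0.920), and 0.0359 without the transgenic female of lane 1.

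Adcy3, a cyclase studied in rodent oocytes for its part in prophase arrest (chromosome 12, 4133103 to 4213525, plus strand), was present in every library with few reads. Transgenic oocytes ran from 0.176 through 0.965 to 1.87 RPM and wild-type oocytes from 0.294 through 0.757 to 1.01 RPM, which overlap. The counts behind these values were 4 to 60 reads per oocyte, and the control RNA held 1631 reads, or 74.0 RPM. Adcy3 was not tested, since its mean lay under the filter.

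Pde3a (chromosome 6, 141249269 to 141499351, plus strand) ranged from 20.1 through a median of 34.1 to 58.7 RPM in transgenic and from 7.09 through 30.0 to 44.3 RPM in wild-type oocytes. The lowest value belonged to wild-type oocyte A of lane 2, whose sisters stood at 20.2 and 31.1 RPM. The female means were 45.2, 28.5, 28.3 and 41.0 RPM in the transgenic and 36.9, 19.5, 27.7 and 28.7 RPM in the wild-type females. On the mean of log2(RPM + 1) the transgenic female was higher in 3 lanes and lower by 0.005 in lane 3. Transgenic females exceeded the others by a log2 of 0.35 ± 0.25, with an interval from -0.18 to 0.89 (limma, adjusted p = 0.786), and it ran from 0.143 (without the wild-type female of lane 2) to 0.506 when each female was left out. Among 19 phosphodiesterase genes Pde3a had rank 4 per length at 2.44 RPM per kb, after Pde8a at 19.4, Pde6d at 10.7 and Pde3b at 9.78. Pde8a encodes an enzyme specific for cyclic AMP, Pde3b the close relative of PDE3A, and Pde6d a carrier of prenylated proteins that is no enzyme.

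Protein kinase A is built of a pair of regulatory and a pair of catalytic subunits, and the regulatory transcripts were the more abundant. Per length, the sum of Prkar1a and Prkar2a was 2.54 to 15.2 times the sum of Prkaca and Prkacb, with a median of 8.06, and it exceeded that sum in all 21 oocytes. In the control RNA the ratio was 1.24. With the longest transcript as the length the range was 2.82 to 16.3, with 1.11 in the control RNA. Beyond the members, Prkar2b, a further regulatory subunit, stood at 26.1 RPM per kb, the inhibitor Pkig at 12.9 and the catalytic relative Prkx at 1.46.

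Prkar1a, the type I regulatory subunit (chromosome 11, 109649405 to 109669656, plus strand), was the steadiest member. Transgenic oocytes ran from 145 through 166 to 185 RPM and wild-type oocytes from 118 through 170.2 to 198 RPM, so the highest oocyte had 1.68 times the lowest. The wild-type range enclosed the transgenic one. The log2 difference was 0.07 ± 0.14, with an interval from -0.23 to 0.37 (limma, adjusted p = 0.917), which bounds the fold between 0.850 and 1.29. It ran from 0.0194 without the transgenic female of lane 1 to 0.151 without the wild-type female of lane 2. Prkar2a, the type II subunit that anchoring proteins tie to membranes (chromosome 9, 108692143 to 108749512, plus strand), ran from 59.5 through 69.5 to 147 RPM in transgenic and from 41.7 through 63.9 to 89.4 RPM in wild-type oocytes. Its highest value was that of transgenic oocyte C of lane 1, whose sister stood at 62.1 RPM. The log2 difference was 0.29 ± 0.18, with an interval from -0.10 to 0.68 (limma, adjusted p = 0.764), positive in 3 of 4 lanes, and 0.133 without that oocyte. The ratio of Prkar1a to Prkar2a per length lay between 1.82 and 4.79 in the oocytes and was 22.9 in the control RNA.

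Prkaca, the catalytic subunit alpha (chromosome 8, 83972978 to 83996445, plus strand), was among the most uneven members. Transgenic oocytes ran from 7.86 through 13.3 to 61.4 RPM and wild-type oocytes from 7.50 through 13.8 to 41.4 RPM. The medians lay close together and the 2 highest values were single oocytes. Oocyte C of the transgenic female of lane 1 stood at 61.4 against 13.8 RPM in its sister. Oocyte C of the wild-type female of lane 2 stood at 41.4 against 13.8 and 19.6 RPM. That oocyte also held the highest values of the cumulus and granulosa markers Inha, Tnfaip6 and Ptx3. A link between those values and its Prkaca level was not tested. Lane 4 was high too, with a median of 28.0 RPM and a range from 12.4 to 37.8 RPM over its 4 oocytes. All 6 oocytes of lane 3 lay between 7.50 and 12.0 RPM. The log2 difference was 0.12 ± 0.37, with an interval from -0.67 to 0.92 (limma, adjusted p = 0.945). It turned to -0.107 without the transgenic female of lane 1, to -0.098 without that of lane 4, to -0.142 without the wild-type female of lane 3, to -0.136 without transgenic oocyte C of lane 1 and to -0.051 without wild-type oocyte A of lane 4.

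Prkacb, the catalytic subunit beta (chromosome 3, 146729579 to 146812960, minus strand), ran from 3.54 through 6.77 to 11.0 RPM in transgenic and from 2.03 through 5.26 to 8.53 RPM in wild-type oocytes. The widest gap was in lane 3, where the transgenic female averaged 8.54 and the wild-type female 3.04 RPM, and there the 3 oocytes of each female did not overlap. In lane 4 the order was the other way, 4.18 against 4.76 RPM. On the log2 scale the difference was 0.36 ± 0.27, with an interval from -0.22 to 0.93 (limma, adjusted p = 0.796). Leaving out the wild-type or the transgenic female of lane 3 gave 0.183 or 0.229, and a pseudocount of 5 gave 0.208. Per length Prkaca exceeded Prkacb 3.26 to 29.6 times, with a median of 11.2, in all 21 oocytes, and 2.24 times in the control RNA. With the longest transcript as the length the ratio was 1.77 to 16.0, with a median of 6.07, and 1.22 in the control RNA.

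**Figure D3:**
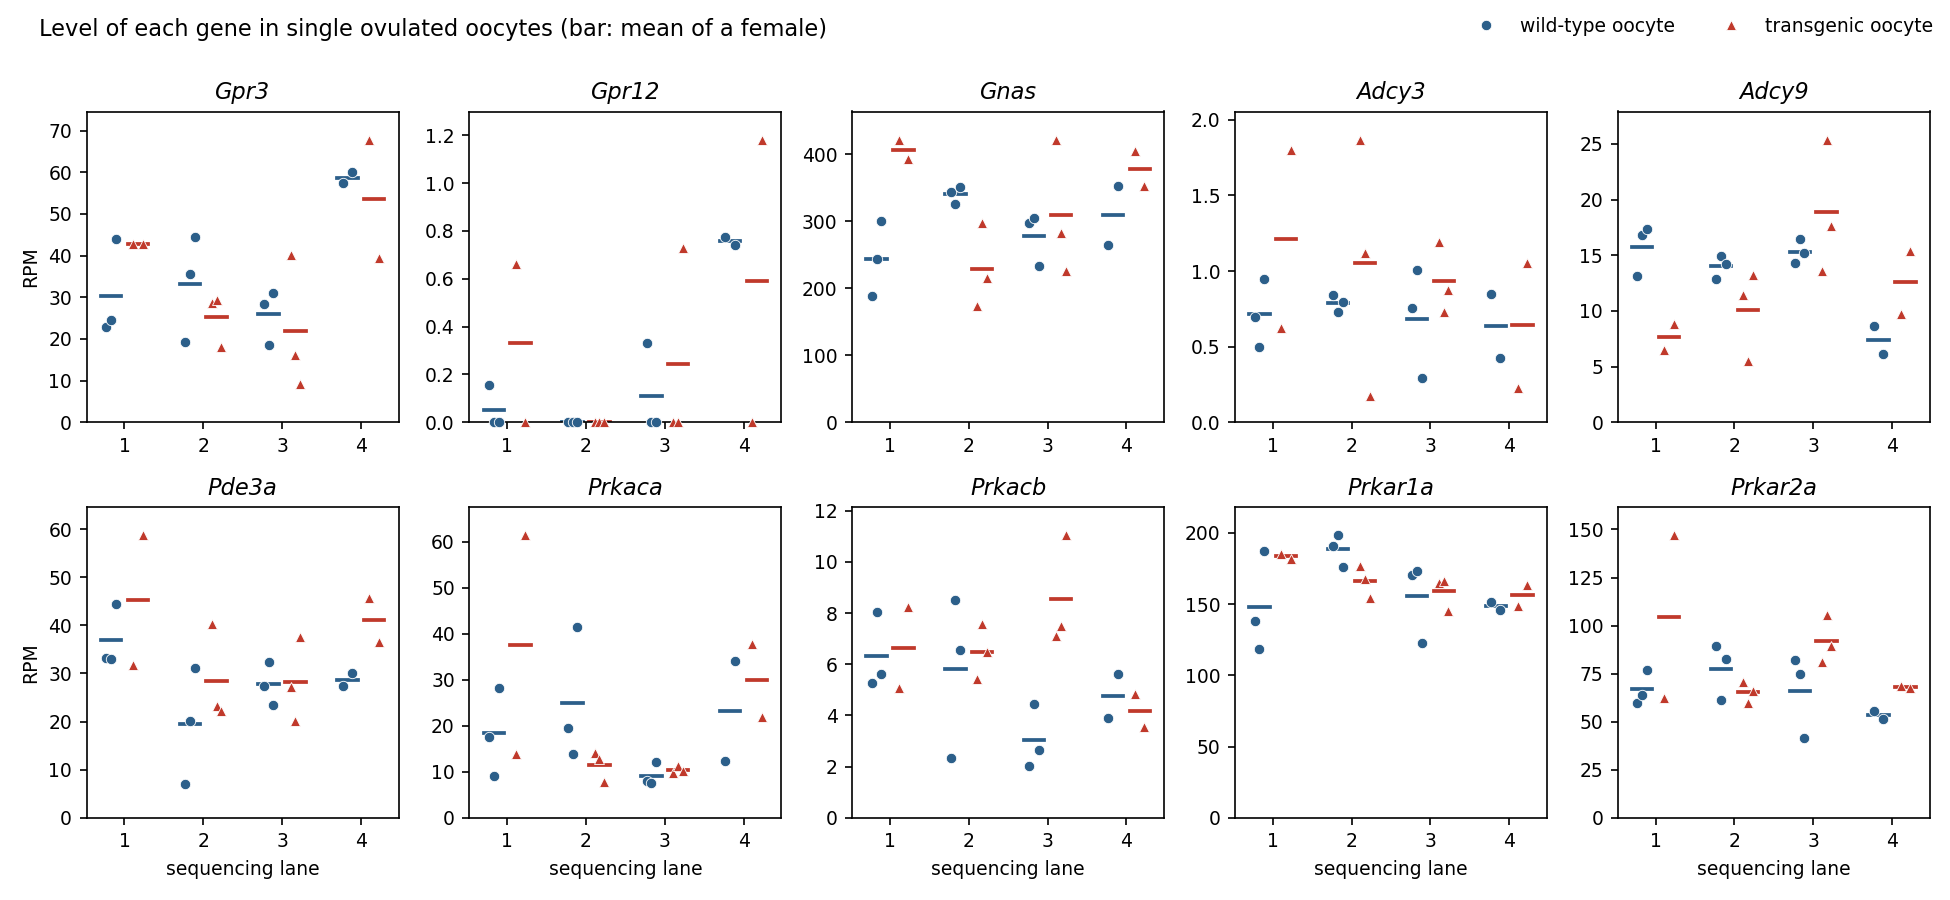
RPM of the 10 genes in single oocytes by sequencing lane, with wild-type oocytes as circles, transgenic oocytes as triangles and bars for the mean of each female. The genotypes overlap in all 10 panels. Gpr3 is high in both females of lane 4, and the 2 highest Prkaca values are those of single oocytes.

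The comparison of the genotypes asked whether raised AMH alters the oocyte's transcripts, and none of the tested members differed between them beyond the spread of the females. Of 8 members tested with limma 0 passed an adjusted p of 0.05, as did 0.0% of the 10987 genes tested, and 0 had an unadjusted p under 0.05 against 6.81% of all genes (748). Voom on summed reads called 0 genes as well (698 at an unadjusted p under 0.05). Female means did not overlap for 0 of the 8 members and for 4.31% of all genes. The sign was the same in all 4 lanes for 0 of the 8 and for 18.3% of all. Of the 8 members 6 were higher in transgenic oocytes, against 47.8% of all genes, with a median log2 difference of 0.13 against -0.01. All intervals reached both sides of 0, and the widest bound was a log2 of 0.93. A miss of the threshold does not show that the genotypes are alike.

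The rest of the pathway was described from 9 further lists, of which 134 genes were in the table and 78 were tested. Of these 43 were higher and 35 lower in transgenic oocytes, 0 passed the adjusted threshold, and without adjustment limma's p was under 0.05 for 5, against 6.81% of all genes. Of the 5, 4 were higher in transgenic oocytes and 1 was lower. They were Prkx, Pde4a, Pde3b, Gnai3 and Gng5. Prkx, a cyclic AMP dependent kinase gene on the X chromosome, had 12.5 ± 5.39 RPM in transgenic against 5.46 ± 1.11 RPM in wild-type females (SD, n = 4), a log2 difference of 1.05 ± 0.32, positive in 3 of 4 lanes. Pde4a, a cyclic AMP phosphodiesterase, stood at 9.51 ± 2.57 and 5.99 ± 2.80 RPM, a difference of 0.75 ± 0.24, positive in 4 of 4 lanes. With the median of a female's oocytes the Pde4a difference was 0.37 (limma, unadjusted p = 0.295), with single oocytes and the female as a random effect 0.71 (unadjusted p = 0.115), and the highest transgenic female, that of lane 1 at 13.0 RPM, stood apart from the others at 7.53 to 9.88 RPM. Pde3b stood at 101 ± 17.0 and 78.6 ± 4.37 RPM and Gnai3, an inhibitory G protein subunit, at 203 ± 40.9 and 156 ± 10.9 RPM, both with a difference of 0.36 ± 0.16. Gng5, a G protein gamma subunit, stood at 60.0 ± 16.9 and 83.1 ± 14.5 RPM, a difference of -0.50 ± 0.21, negative in 4 of 4 lanes. Without the transgenic female of lane 1 the difference was 0.24 for Gnai3 and -0.32 for Gng5 (limma, unadjusted p = 0.110 and 0.108). The limma adjusted p of each of the 5 was 0.724, and over 19 other settings no pathway gene came below 0.0989.

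By list, 10 of 19 tested G protein genes were higher and 9 lower, with Rgs2, a regulator of G protein signalling, at 2787 RPM and Gnb4 at 231 RPM on average. Of 5 other cyclases 2 were higher, with the soluble cyclase Adcy10 at 0.740 ± 0.109 against 1.19 ± 0.428 RPM. Of 11 other phosphodiesterases 6 were higher, and of 4 other kinase subunits and inhibitors 3. Of 4 tested receptor kinases and arrestins 1 was higher and 3 were lower, with the arrestin Arrb2 at 4.47 ± 0.201 against 5.80 ± 0.768 RPM and the receptor kinase Grk4 at 1.53 ± 0.432 against 2.50 ± 1.18 RPM (transgenic against wild type; adjusted p = 0.799 and 0.796). Pdcl, a phosducin-like protein gene of the same list, was at 24.5 RPM on average. Of the 2 other receptors tested, Ptger4 was at 14.9 ± 2.22 against 12.1 ± 1.42 RPM and Adcyap1r1 at 4.95 ± 2.23 against 5.87 ± 1.40 RPM. Median log2 differences of these 6 lists ran from -0.26 for the receptor kinases and arrestins to 0.11 for the phosphodiesterases.

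**Figure D4:**
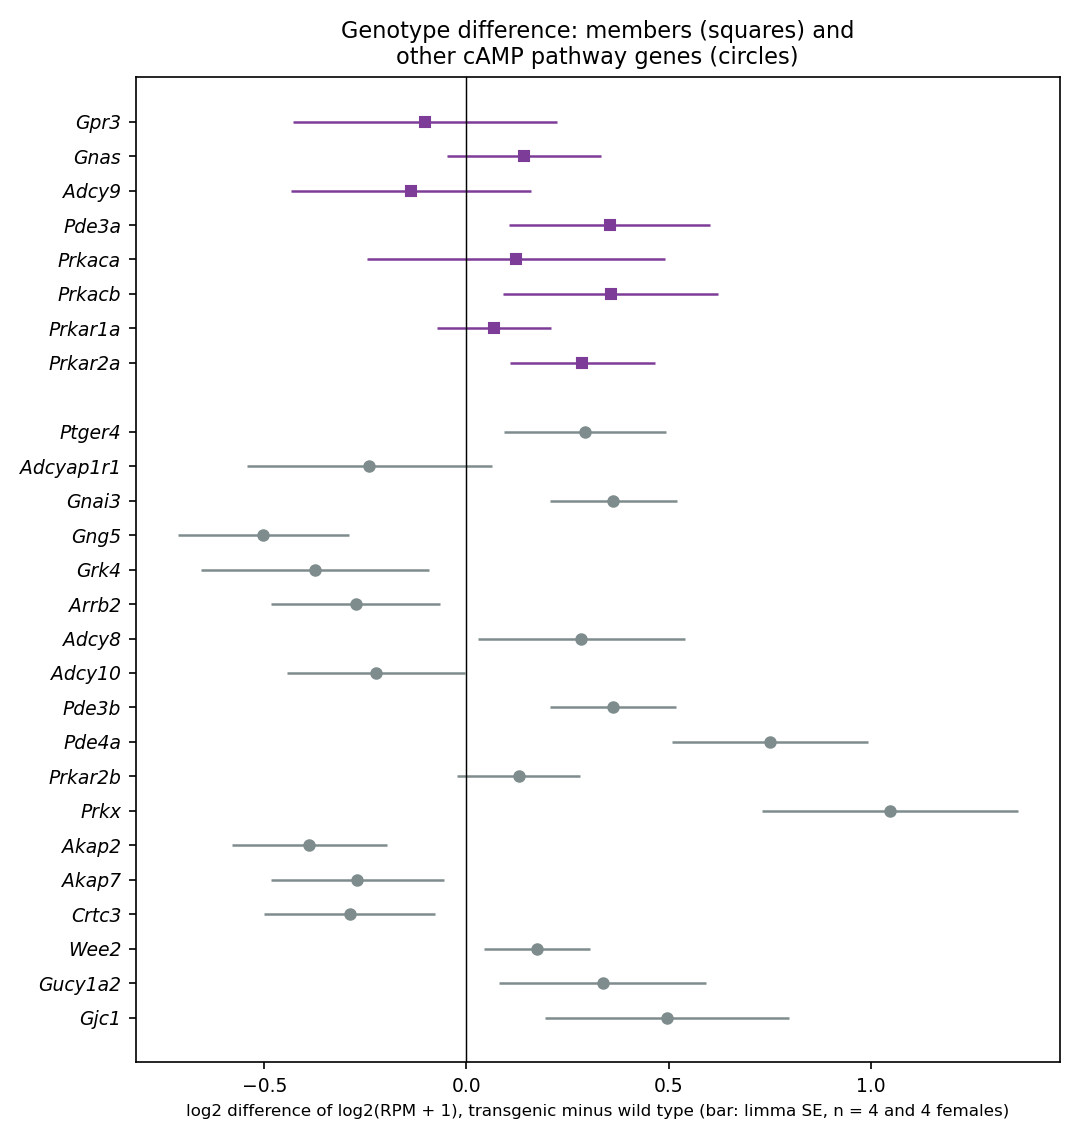
Log2 difference of log2(RPM + 1), transgenic minus wild type, with limma's SE over 4 and 4 females, for the 8 tested members (squares) and for the other pathway genes with the smallest p of each list (circles). None passed an adjusted p of 0.05, and Prkx at 1.05 lies farthest from 0.

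Against the control RNA, 2 members were higher in oocytes, 6 were lower and 2 lay within the oocytes' range. Pde3a stood 19.0 times higher in oocytes, at a mean of 31.1 RPM against 1.63 RPM in the control RNA (36 reads, exact 95% interval 1.14 to 2.26 RPM), and Gpr3 4.27 times higher, at 34.3 against 8.03 RPM (6.89 to 9.31). The control RNA lay below all 21 oocytes for these 2 members, as for 24.6% of 16105 genes at 1 RPM or more in either. It lay above all 21 oocytes for 6 members, as for 57.8% of those genes. The same 6 members stood at least 4 times higher in the control RNA on the RPM + 1 scale, against 41.1% of the genes, and 1 member, Pde3a, stood at least 4 times higher in oocytes, against 15.4%. Among the 6 were Prkacb at 599 against 5.80 RPM, Prkaca at 381 against 19.3 RPM, Prkar1a at 1137 against 163 RPM and Gnas at 1843 against 304 RPM. Gpr12 stood at 29.3 RPM there, 135 times its mean in oocytes. Adcy9 at 15.6 RPM and Prkar2a at 73.2 RPM in the control RNA lay within the range of the oocytes. With 1 control library these ratios have no replicate check.

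Sister oocytes differed most for Prkaca and Gpr3. The SD between oocytes of a female on the log2(RPM + 1) scale was 0.70 for Prkaca, 0.57 for Gpr3, 0.52 for Pde3a, 0.43 for Prkacb, 0.36 for Prkar2a, 0.35 for Adcy9, 0.30 for Gnas and 0.19 for Prkar1a, and the median over all tested genes was 0.41. Since low genes scatter more, each was also set beside the tested genes within 2-fold of its own mean. There the SD of Prkaca was larger than that of 95.2% of 2979 genes and that of Gpr3 larger than 93.1% of 2812, while Prkar1a exceeded 16.2% of 1700 and Adcy9 21.6% of 3007. The SD between female means was 0.68 for Prkaca, 0.60 for Gpr3, 0.49 for Adcy9 and 0.14 for Prkar1a, with a median of 0.32 over all genes.

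**Figure D5:**
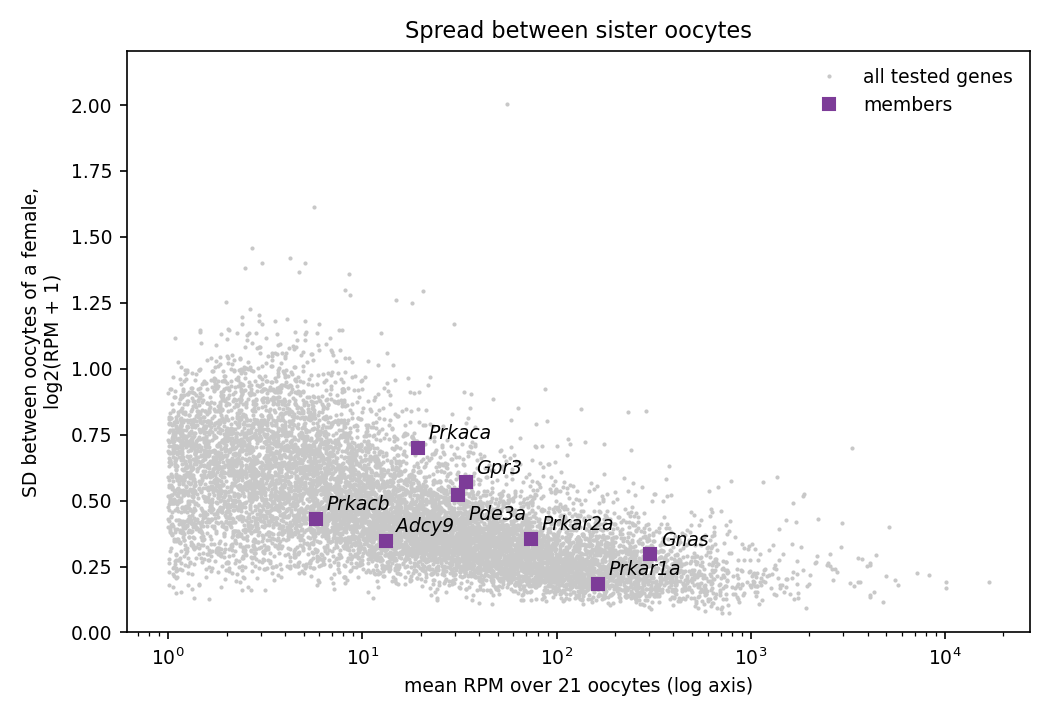
SD between oocytes of a female on the log2(RPM + 1) scale against mean RPM (log axis) for all tested genes (dots) and the 8 tested members (squares). Prkaca at 0.70 and Gpr3 at 0.57 lie high among genes of their level, and Prkar1a at 0.19 lies low.

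Across the 21 oocytes the 28 pairs of tested members had a median Pearson's r of 0.12 on the log2 scale, 18 positive and 10 negative, as a description, since the values share libraries and mothers. Gpr3 correlated positively with Prkaca (r = 0.59, Spearman's rho 0.66) and with Gnas (0.55 and 0.61), and ran against Adcy9 (-0.55 and -0.50). After the mean of each female was subtracted these were 0.34, 0.57 and -0.33. Of 6027 other genes that averaged 10 RPM or more, those most like Gpr3 over the 21 oocytes were Anxa7 (r = 0.87), Tmco6 (0.86) and Atp6ap1 (0.84). Those most like Pde3a were Pecam1 (0.80), Caprin1 (0.76) and Rara (0.75). Each leads 6027 comparisons over few oocytes.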

How the data were processed

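Per the labels' protocols, oocytes were lysed singly, their RNA was amplified by SMART-Seq v4, and ThruPLEX libraries were made. Trim Galore, FastQC, HISAT2, GRCm39 and mm39 are named in the submitters' processing notes. For the counting, the tool, strand, annotation and handling of multi-mapping reads were not given in the sources used here. Coordinates in the table are those of GRCm38: of 25035 IDs matched to GENCODE M21, 99.7% overlapped its gene. The authors deposited log2 values called RPKM, but they are log2 RPM, with genes without reads at the value of 0.9 reads. Whole reads were recovered from them (99.84% of values above 0 within 0.02 of a whole read). Columns of 21 oocytes and 1 control RNA were used; the first transgenic oocyte listed for lane 1 and the library without input were not analysed here.

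Values were log2(RPM + 1), a scale that shrinks changes of low genes. The 10987 genes averaging 1 RPM or more were averaged per female and compared with limma 3.58.1 in R 4.3.3 (lmFit, eBayes with trend), two-sided, Benjamini-Hochberg adjusted, threshold 0.05. Count models were not used, as the deposited unit is log2; voom on recovered reads was an alternative. Exact permutation tests over 70 arrangements of the 8 females served for single values and cannot go below 0.029. Lengths are merged exons of GENCODE M21, and upstream sequences are RefSeq's (GRCm38.p6), found for 9 of the 10 members. The fit was tested on simulated data with changes larger than the differences of the members. That test does not cover differences of their size. The labels' lanes pair a transgenic with a wild-type female; deviations from the genotype means correlated within lanes at -0.040, 0.084, 0.34 and 0.32 in lanes 1 to 4 (other pairs, median -0.055).

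The members and lists were chosen with earlier results of these data known. Named were all members, from each further list the 2 genes of highest level and of smallest p, the 3 genes most like Gpr3 and Pde3a, and the top 2 of each marker list; genes named outside this rule are said to be so, or are named as members of the ranked families. Leaving out single oocytes and the longest transcript as length were alternatives added after seeing the data.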

Additional observations from a re-analysis of the deposited data

Results flagged for a closer look

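In groups of 4 females, a female was singled out where its gap to the nearest other, as a share of the group's range, exceeded Dixon's 95% critical value on the log2(RPM + 1) scale. Of 56 groups, from 28 genes in 2 genotypes, 3 were singled out, and chance gives about 1 in 20. The wild-type female of lane 4 stood at 7.37 RPM of Adcy9, against 14.0 to 15.8 RPM in the other wild-type females. The same female stood at 0.757 RPM of Gpr12, against 0 to 0.110 RPM in the others. The transgenic female of lane 1 stood at 13.0 RPM of Pde4a, against 7.53 to 9.88 RPM in the other transgenic females.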

How the results depend on the processing

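Of 19 alternatives, 17 called 0 genes. With the replicate block of lanes and single oocytes, the female a random effect, limma called 12 genes, 4 of them higher, and none of them belonged to the members or the pathway lists. With the replicate block on female means it called 0, with 1028 genes at an unadjusted p under 0.05. When each of the 8 females was left out the count ran from 0 to 1, the 1 without the transgenic female of lane 1. The block changed no call of a member. Leaving out a female moved the log2 difference of Gpr3 between -0.333 and 0.151, of Adcy9 between -0.374 and 0.0359, and of Prkaca between -0.142 and 0.366; leaving out an oocyte moved Gpr3 between -0.240 and 0.0127 and Prkaca between -0.136 and 0.382. The cause of these turns was not tested. Under the other 11 settings no member changed sign, and Gnas, Pde3a, Prkacb, Prkar1a and Prkar2a did so under none, with females and oocytes left out included. The filter of at least 10 RPM gave no value for Prkacb. Depth limits Gpr12 and Adcy3, whose oocytes held at most 28 and 60 reads.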

Other observations

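Transcripts of the anchoring proteins that place protein kinase A in the cell were found for most of the family. Of 16 A-kinase anchoring protein genes 12 were tested, 6 higher and 6 lower in transgenic oocytes, and 2, Akap3 and Akap14, had 0 reads in all oocytes. Per length Akap2 was at 52.4, Akap7 at 37.0 and Akap12 at 28.7 RPM per kb on average. Akap2 had 360 ± 81.7 RPM in transgenic against 470 ± 103 RPM in wild-type females (SD, n = 4), a log2 difference of -0.39 ± 0.19 (limma, adjusted p = 0.744; 0.159 to 0.999 over the alternatives), and Akap7 at 140 ± 25.6 and 173 ± 47.9 RPM, a difference of -0.27 ± 0.21.

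Downstream of the kinase, Wee2, which restrains CDK1 in the oocyte, had 951 ± 95.6 RPM in transgenic against 842 ± 69.1 RPM in wild-type females, higher in 4 of 4 lanes with a log2 difference of 0.17 ± 0.13 (limma, adjusted p = 0.796; 0.375 to 0.999 over the alternatives). Of 15 tested effectors and targets 10 were higher and 5 lower. The coactivator Crebbp was at 183 RPM on average, and Crtc3, a coactivator of CREB, at 13.0 ± 2.97 against 15.9 ± 1.92 RPM. On the side that supplies cyclic GMP, the natriuretic peptide receptor Npr2 had 0 reads in all 21 oocytes, against 55.5 RPM in the control RNA. Gja4, the connexin that joins the oocyte to its cumulus cells, was at 74.2 RPM on average, and the cumulus connexin Gja1 had reads in 3 oocytes. Of 6 tested genes of this list 4 were higher and 2 lower. The cyclic GMP dependent kinase Prkg1 was at 19.1 RPM on average, the guanylyl cyclase subunit Gucy1a2 at 4.11 ± 0.736 against 3.08 ± 0.584 RPM and the connexin Gjc1 at 3.42 ± 1.11 against 2.43 ± 1.15 RPM. Npr2 and Gja1 were named after their values were seen.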
